A study of Mus musculus with 2 samples.

Results

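The genes described here encode the subunits of the proteasome and some of its assembly chaperones, activators and inhibitors. They were chosen by symbol, as every gene of the deposited matrices whose name begins with Psma, Psmb, Psmc, Psmd, Psme or Psmf and a number and which had at least 100 UMIs (unique molecular identifiers, each 1 captured transcript) in the 2 libraries together. The symbol pattern matched 46 of the 31053 genes listed, and 44 passed the minimum. Of these, 42 have a subunit symbol and are called subunit genes below, 5 of them immune (Psmb8, Psmb9, Psmb10, Psme1 and Psme2) and 37 constitutive. By their symbols the constitutive genes include some that are not subunits of the particle itself. These are the base assembly chaperones Psmd5, Psmd9 and Psmd10, the activators Psme3 and Psme4 and the inhibitor Psmf1. The other 2 are kept apart. Psmc3ip encodes a recombination factor that is not a subunit of the proteasome, and Psme2b is a near copy of Psme2 whose reads may not separate cleanly from those of its parent gene. The matches below the minimum were Psma8, the alpha subunit of the testis, with 0 UMIs in both libraries where a count of 0 allows up to 3, and Psmb11, the catalytic subunit of the thymus cortex, with 2 and 3 UMIs. A total of 10527 genes reached the minimum and serve as background.

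Both libraries came from mouse leukemia driven by AML1-ETO9a (AE9a), a truncated form of the AML1-ETO fusion, which was put into fetal liver cells with a GFP-carrying retrovirus and passed into C57BL/6 recipients. The donor cells also carried floxed Usp18, the protease that removes ISG15 from proteins and dampens type I interferon signalling, and Cre-ERT2 under the ubiquitin C promoter, which tamoxifen activates. Mice that had become sick received corn oil (the group oil, labelled Usp18f/f) or tamoxifen in oil (the group tamoxifen, labelled Usp18delta/delta), and 3 days after injections began Lin- c-Kit+ GFP+ splenocytes were sorted. Each group is 1 library of 3 pooled mice, and both titles name the same batch. The labels disagree on the genotype, since the treatment protocol has Usp18+/f cells and a heterozygous loss. The study used mice of either sex aged 8 to 12 weeks, and states neither for these pools. No label maps cells to mice, so there is no replicate, no test was made, and every interval below is a 95% interval for counting error only.

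The 2 matrices held 7774 and 7311 barcodes, of which 6838 (oil) and 6472 (tamoxifen) passed a filter of 500 or more genes and no more than 10% mitochondrial UMIs. The kept cells held 66045700 and 60661486 UMIs, with medians of 8622.5 and 8209.5 per cell. The targeted gene went against its label, with Usp18 at 5.62 and 15.4 UMIs per 1000000 UMIs (CPM) in the libraries labelled oil and tamoxifen. These 3′ reads do not show whether the floxed exons were deleted. Isg15, the modifier that Usp18 removes, was 47.8 and 113 CPM, and Kit, the receptor used in the sort, 171 and 232 CPM. The libraries shared 14 barcode sequences, 12 of them among kept cells. The marker lists of T cells, B and plasma cells, NK cells, neutrophils, dendritic cells and endothelial cells summed to between 0 and 66 UMIs in each library, with Flt3, Itgax, Ncr1 and Cdh5 at 0 in both. The macrophage and monocyte list summed to 546 and 525 UMIs, mostly Cd68.

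The proteasome degrades proteins tagged with ubiquitin. Its core is a barrel of alpha and beta rings, in which beta1, beta2 and beta5 cut peptide bonds, and it is capped by a regulatory particle whose ATPase base unfolds substrates and whose lid removes ubiquitin. Interferons induce alternative catalytic subunits, Psmb9 (beta1i), Psmb10 (beta2i) and Psmb8 (beta5i), which replace Psmb6, Psmb7 and Psmb5 in newly built particles and shift cleavage towards peptides that MHC class I molecules bind. They also induce Psme1 and Psme2, which together form the activator PA28. Blood cells carry these immune forms without stimulation. The constitutive genes are jointly controlled by NRF1 (Nfe2l1), which acts at antioxidant response elements when proteasome activity runs short.

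Psmb8 and Psmb9 lie beside the peptide transporter genes in the MHC region of chromosome 17, Psmb8 at chr17:34197721-34201454 on the plus strand and Psmb9 at chr17:34181987-34187764 on the minus strand (GRCm38 annotation). Psme1 (chr14:55578123-55581529, plus) and Psme2 (chr14:55587441-55591113, minus) are neighbours on chromosome 14, and Psmb10 is alone on chromosome 8 at chr8:105935735-105938444 on the minus strand. Promoter windows of 300 bases around the start sites were available from RefSeq (GRCm38.p6) for 36 of the 42 subunit genes and were missing for Psmb1, Psmb2, Psmb7, Psmc3, Psmd3 and Psmd7. The windows of 3 immune genes and of 2 constitutive counterparts are shown because the comparisons below turn on these genes. The 3 immune windows shown lie inside the annotated gene spans given above, so bases upstream of those spans were not searched. Those of Psmb5 and Psmb6 reach beyond the annotated 5′ ends of their genes. Capitals mark matches to any of 4 motifs searched on both strands, namely the interferon-stimulated response element core (GAAA followed after 2 bases by GAAA), the gamma-activated site (TTCNNNGAA), the antioxidant response element core (TGACNNNGC) and the CCAAT box (CCAAT). The printed Psmb9 window (chr17:34187281-34187580, minus strand) shares 275 bases with the window of Tap1, which is read from the other strand.
Psmb9: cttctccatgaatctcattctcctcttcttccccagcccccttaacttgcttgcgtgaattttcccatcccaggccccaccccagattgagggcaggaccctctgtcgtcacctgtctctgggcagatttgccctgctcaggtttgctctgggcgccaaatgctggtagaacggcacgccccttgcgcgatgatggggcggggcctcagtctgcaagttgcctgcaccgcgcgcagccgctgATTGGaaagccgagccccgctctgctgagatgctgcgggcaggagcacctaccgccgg
Psmb8 (chr17:34197945-34198244, plus strand): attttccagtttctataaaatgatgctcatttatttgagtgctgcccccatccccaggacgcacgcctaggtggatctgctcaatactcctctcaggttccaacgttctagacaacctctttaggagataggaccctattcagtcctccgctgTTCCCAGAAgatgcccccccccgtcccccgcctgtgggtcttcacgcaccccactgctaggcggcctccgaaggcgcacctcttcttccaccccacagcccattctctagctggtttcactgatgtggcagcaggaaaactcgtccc
Psme1 (chr14:55578244-55578543, plus strand): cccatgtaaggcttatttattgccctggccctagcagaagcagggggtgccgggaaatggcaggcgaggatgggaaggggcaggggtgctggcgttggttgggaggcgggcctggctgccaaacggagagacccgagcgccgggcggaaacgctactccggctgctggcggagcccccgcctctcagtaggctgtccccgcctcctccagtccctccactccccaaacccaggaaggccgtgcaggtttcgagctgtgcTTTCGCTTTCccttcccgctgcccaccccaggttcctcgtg
Psmb5 (chr14:54617946-54618245, minus strand): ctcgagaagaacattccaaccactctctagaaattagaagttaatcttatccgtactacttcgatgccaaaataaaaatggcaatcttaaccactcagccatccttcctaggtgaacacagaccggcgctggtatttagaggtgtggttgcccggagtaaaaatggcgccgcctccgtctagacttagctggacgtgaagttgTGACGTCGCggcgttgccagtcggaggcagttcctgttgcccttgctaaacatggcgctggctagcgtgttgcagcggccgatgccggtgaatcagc
Psmb6 (chr11:70525107-70525406, plus strand): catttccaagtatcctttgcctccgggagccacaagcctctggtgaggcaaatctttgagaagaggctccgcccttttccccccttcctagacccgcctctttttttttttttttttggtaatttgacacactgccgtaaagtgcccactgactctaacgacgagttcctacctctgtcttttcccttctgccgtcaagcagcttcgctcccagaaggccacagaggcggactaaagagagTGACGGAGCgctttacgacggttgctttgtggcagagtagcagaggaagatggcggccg

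The gamma-activated site of Psmb8, ttcccagaa, began at position -97 from the start site, and the interferon-stimulated core of Psme1 began 9 bases after it. The antioxidant cores of Psmb5 and Psmb6 began at positions -47 and -9, and the CCAAT box of Psmb9 at position -8. Counted by gene, with a match in any window of the gene, the interferon-stimulated core was present in 1 of 5 immune genes. It was present in 3 of 31 constitutive ones (Psmb3, Psmd4 and Psmd9), against 3.99% of the 27025 genes with a window. The gamma-activated site was present in 1 of 5 and in 1 of 31 (Psmd2), against 9.55%. The antioxidant core was in 0 of 5 immune genes and in 6 of 31 constitutive ones, against 14.0%, and the CCAAT box in 1 of 5 and 12 of 31, against 41.1%. A match is only a run of letters in these windows, and binding was not measured. The counts cover these windows alone, and for Psmb8, Psmb9 and Psme1 they leave out the bases upstream of the annotated 5′ end.

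The subunit genes were abundant transcripts in both libraries. A 3′ UMI count records 1 end per transcript and is not scaled by length, so levels in CPM may be set side by side between genes, although capture can differ between 3′ ends. The 37 constitutive genes summed to 8071 and 6812 CPM in the libraries labelled oil and tamoxifen, and ranged from 42.03 to 509 CPM and from 37.2 to 425 CPM. The 5 immune genes summed to 729.9 and 711.0 CPM. Among them Psme1 was highest, at 267.0 and 282.7 CPM, followed by Psme2 (151.8 and 131.2), Psmb8 (122.8 and 116.4), Psmb9 (103.7 and 96.0) and Psmb10 (84.6 and 84.6). The order of these genes was the same in both libraries, and their counting intervals did not overlap within a library. Immune UMIs came to 9.04% and 10.4% of constitutive UMIs in the libraries labelled oil and tamoxifen.

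**Figure D1:**
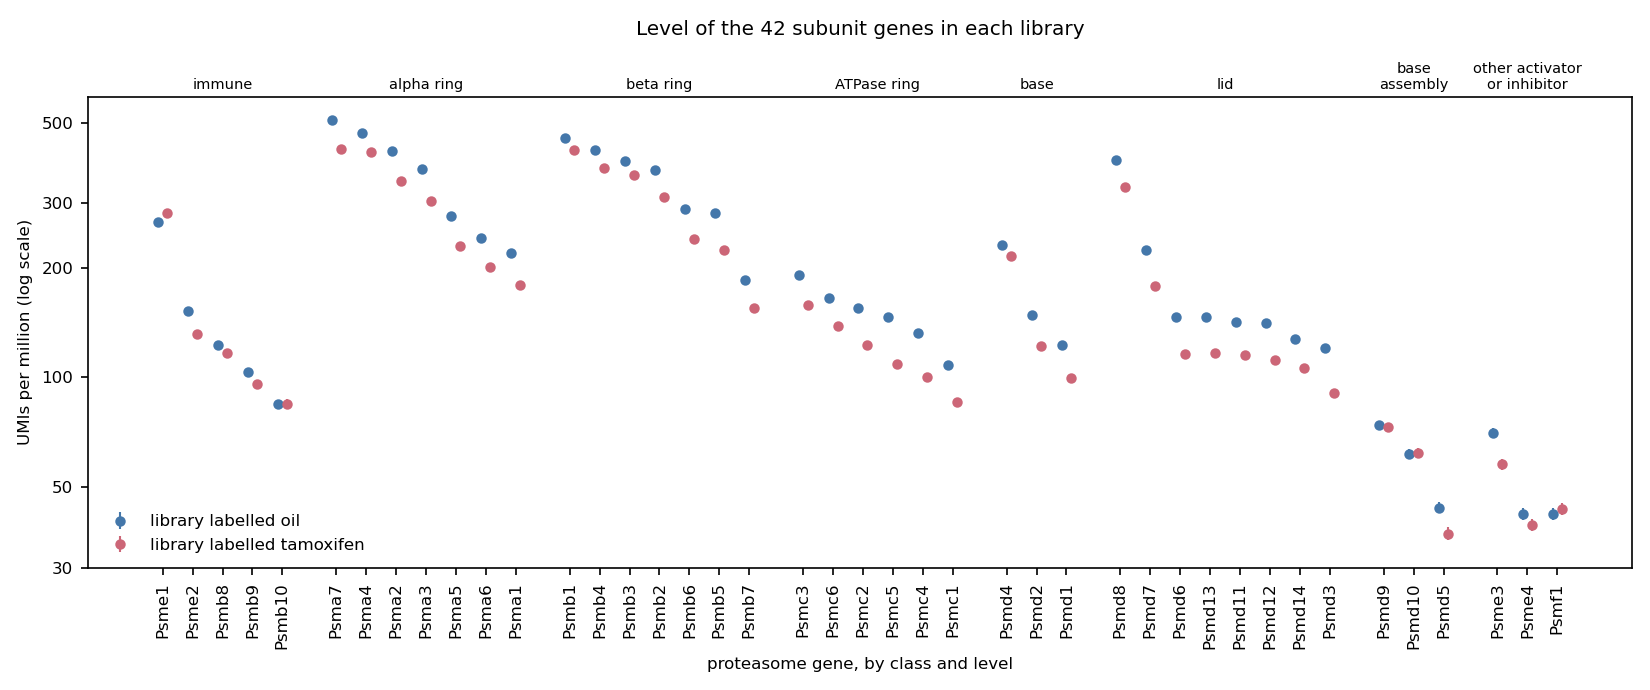
Level of each of the 42 subunit genes, in CPM on a log axis, in the libraries labelled oil (blue) and tamoxifen (red), grouped by place in the proteasome. Points are the sum over kept cells and bars, mostly hidden by the points, are 95% Poisson intervals. Most constitutive genes are lower in the library labelled tamoxifen, whereas Psmb10 is at 84.6 in both and Psme1 is higher there, at 282.7 against 267.0.

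The 7 alpha genes summed to 2505 and 2097 CPM and the 7 constitutive beta genes to 2393 and 2086 CPM, against 896 and 714 CPM for the 6 ATPases and 1441 and 1165 CPM for the 8 lid genes. Psma7 (alpha4) was highest of all, at 509 and 425 CPM, and Psma1 (alpha6) was the lowest of the alpha ring at 219 and 179 CPM. In the constitutive beta ring, Psmb1 (beta6) reached 453 and 422 CPM and Psmb7 (beta2) 185 and 154 CPM. The ATPase genes ran from Psmc3 (Rpt5), at 191 and 158 CPM, down to Psmc1 (Rpt2), at 108 and 85.3 CPM. In the lid, Psmd8 (Rpn12) stood apart at 395 and 333 CPM from Psmd3 (Rpn3) at 120.0 and 90.4 CPM. Psmd5, a chaperone of base assembly, was the lowest in the library labelled tamoxifen, at 43.9 and 37.2 CPM, and Psmf1, the inhibitor PI31, the lowest in the library labelled oil, at 42.03 and 43.6 CPM.

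The first comparison was between the libraries. The constitutive genes were lower in the library labelled tamoxifen nearly throughout, and the immune genes were mixed, with 3 of 5 intervals below 0 and 1 above. The constitutive sum gave a log2 ratio of tamoxifen over oil of -0.245 (-0.251 to -0.239), a fold of 0.844. It stayed between -0.17 and -0.21 under 3 other scalings. The immune sum gave -0.038 (-0.057 to -0.019), a value that changed sign under these scalings, to 0.0046 with TMM, 0.00081 with median-ratio factors and 0.033 with a total that leaves out mitochondrial and ribosomal protein genes. Ribosomal protein genes held 22.3% and 25.7% of UMIs in the 2 libraries, and their part in these ratios was not tested beyond that scaling. The log2 odds of immune over constitutive UMIs do not depend on scaling, and they were 0.21 higher (0.19 to 0.23) in the library labelled tamoxifen. Without replicates, no value can be set against the spread between mice, and in sums over cells fewer cells of a type and fewer transcripts per cell cannot be told apart.

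By single genes, 35 of 37 constitutive ratios were below 0, and the median was -0.27, where the median over all genes tested was -0.063. The counting interval lay below 0 for 34 of 37 (39.8% of all genes tested) and above 0 for 0 of 37 (19.3% of all genes tested). Those that held 0 were the assembly chaperones Psmd9 and Psmd10 and the inhibitor Psmf1, which are not subunits of the particle. A level at least 20% lower in the library labelled tamoxifen was met by 10 of 37 constitutive genes, against 10.7% of all genes, and one at least 25% higher by 0 of 37, against 6.79%. These bounds are the same fold in either direction. None of the 5 immune genes passed them, and their intervals lay above 0 for 1, below 0 for 3 and around 0 for 1. The balance of the immune genes depended on scaling, with 1 above and 2 below under TMM and under median-ratio factors, and 2 above and 1 below without mitochondrial and ribosomal protein genes. The background itself moved with scaling. Of all genes whose interval left out 0, 32.7% were higher in the library labelled tamoxifen, and this became 43.2% with TMM, 42.2% with median-ratio factors and 50.8% without mitochondrial and ribosomal protein genes, while 33, 33 and 32 constitutive genes lay below 0 and 1, 1 and 2 above. The count at least 20% lower was 3 of 37 under each of these scalings. Over the 10527 genes tested it was 805, 823 and 633 in the same order, against 1122 before.

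**Figure D2:**
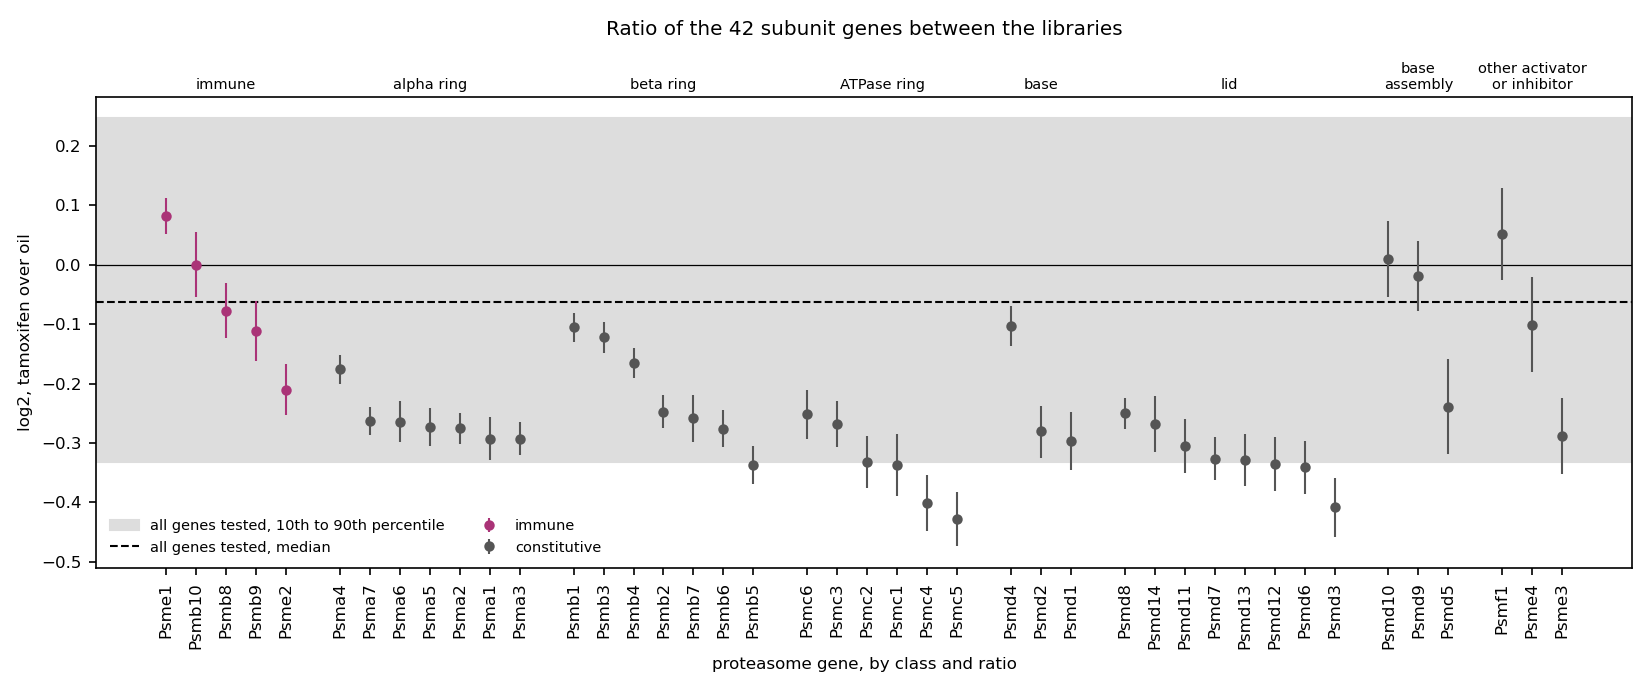
Log2 ratio of tamoxifen over oil for each of the 42 subunit genes by class, with 95% counting intervals, immune genes in purple and constitutive genes in grey. The shaded band runs from the 10th to the 90th percentile of all genes tested (-0.33 to 0.25), and the dashed line is their median (-0.063). The alpha ring, beta ring, ATPase ring, base and lid all lie below that line, and the immune genes spread from -0.21 to 0.083, with a sum whose sign changes with scaling.

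The difference was not even along the particle. The lid genes summed to a log2 ratio of -0.31 and the ATPases to -0.33, against -0.26 for the alpha ring and -0.20 for the constitutive beta ring. The base genes other than the ATPases also summed to -0.20, so the regulatory particle was not lower throughout. The lid sum leaves out Sem1, a lid subunit whose symbol falls outside the pattern and whose ratio was 0.35. Lowest of all was Psmc5 (Rpt6), which went from 146 CPM in the library labelled oil to 109 CPM in the library labelled tamoxifen, a log2 ratio of -0.43 (-0.47 to -0.38). Psmd3 followed at -0.41 (-0.46 to -0.36). The ATPase nearest to 0 was Psmc6 (Rpt4), at -0.25. Psmd8 was the nearest of the lid at -0.25, and Psma4 (alpha3) the nearest of the alpha ring at -0.18, with Psma3 (alpha7) the farthest at -0.29. In the beta ring Psmb1 was at -0.11 and Psmb5 at -0.34. Of the base, the ubiquitin receptor Psmd4 (Rpn10) was at -0.10 and the scaffold Psmd1 (Rpn2) at -0.30. The 3 chaperones of base assembly summed to -0.059, with Psmd10 (gankyrin) at 0.010 (-0.055 to 0.074), Psmd9 (p27) at -0.018 (-0.077 to 0.041) and Psmd5 at -0.24.

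The alternative activators differed among themselves. Psme3, the nuclear activator PA28gamma, was at 70.3 and 57.6 CPM, a log2 ratio of -0.29 (-0.35 to -0.22). Psme4, the activator PA200, was at 42.1 and 39.3 CPM (-0.10, -0.18 to -0.021), and Psmf1 at 0.052 (-0.025 to 0.13). Of the pattern matches kept apart, Psmc3ip went from 1412 to 998 UMIs (-0.38, -0.50 to -0.26) and Psme2b from 264 to 209 UMIs (-0.21, -0.48 to 0.053).

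The immune genes did not differ as a block. Psme1 (PA28alpha) was higher in the library labelled tamoxifen, by 0.083 on the log2 scale (0.052 to 0.11), whereas its partner Psme2 (PA28beta) was lower, at -0.21 (-0.25 to -0.17). The pair therefore went from 1.76 UMIs of Psme1 per UMI of Psme2 to 2.15. Among the catalytic subunits, Psmb9 was at -0.11 (-0.16 to -0.061), Psmb8 at -0.077 (-0.12 to -0.031) and Psmb10 at 0.00011 (-0.055 to 0.055). The interval of Psmb8 held 0 with TMM (-0.081 to 0.011), and in the few cells left by a stricter filter (1000 or more genes, no more than 5% mitochondrial UMIs) the ratios turned to 0.086 (-0.10 to 0.28) for Psmb8 and 0.017 (-0.19 to 0.22) for Psmb9. Each of their constitutive counterparts was lower by more. Psmb6 went from 291 to 240.1 CPM (-0.28), Psmb5 from 282 to 223 CPM (-0.34) and Psmb7 from 185 to 154 CPM (-0.26).

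As a share of the UMIs of its pair, each immune catalytic form was therefore higher in the library labelled tamoxifen. Psmb8 made up 30.3% (29.8 to 30.9) and 34.3% (33.6 to 34.9) of Psmb8 and Psmb5 in the libraries labelled oil and tamoxifen, a difference of 3.93 percentage points (3.07 to 4.78). Psmb10 made up 31.4% and 35.4% of Psmb10 and Psmb7 (3.98 points, 2.94 to 5.02). Psmb9 made up 26.3% and 28.6% of Psmb9 and Psmb6 (2.27 points, 1.45 to 3.09). In G1 cells alone, the Psmb9 difference was 1.10 points, with an interval that held 0 (-0.48 to 2.67). Of the activators, Psme1 made up 79.1% and 83.1% of Psme1 and Psme3, and Psme2 68.3% and 69.5% of Psme2 and Psme3. These are shares of transcripts, and the composition of assembled particles was not measured.

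Most cells held several proteasome transcripts. At 3000 UMIs per cell, to which every cell was thinned so that depth was equal (508 and 345 shallower cells left out), a cell of the library labelled oil held a mean of 22.7 constitutive UMIs and a cell of the library labelled tamoxifen 19.0. The 10th and 90th percentiles were 13 and 32, and 10 and 29. Immune UMIs averaged 2.13 and 2.06 per cell, and 14.61% and 14.97% of cells had 0. The variance was 2.41 and 2.61 times the mean for constitutive UMIs and 1.21 and 1.20 times the mean for immune UMIs, where counting alone gives a ratio of 1. Where levels differ between cells this ratio grows with the mean, so it does not rank the spread of the gene groups. Psme1 was detected in 52.7% and 53.4% of thinned cells, Psmb8 in 30.6% and 29.5%, Psmb9 in 25.7% and 24.7%, Psmb10 in 20.3% and 20.8% and Psme2 in 33.5% and 28.7%. The counterparts were detected in 53.2% and 44.8% (Psmb5), 54.0% and 47.3% (Psmb6) and 40.1% and 35.2% (Psmb7). Without thinning, Psmb8 was detected in 58.4% and 57.2% of cells and Psmb5 in 78.3% and 72.2%. No cell type that should lack these genes was at hand, so the share that free RNA gives was not measured.

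Cell cycle phase separated the constitutive genes from some of the immune genes. Phases were called from published S and G2M gene lists that hold no proteasome gene, and gave 44.0% G1, 20.8% S and 35.2% G2M cells in the library labelled oil and 58.1%, 14.2% and 27.7% in the library labelled tamoxifen. Constitutive genes summed to 6664 CPM in G1, 8812 in S and 8575 in G2M in the library labelled oil, and to 5760.3, 7796 and 7551 CPM in the library labelled tamoxifen. In S over G1 this is a log2 ratio of 0.40 and 0.44, and in G2M over G1 one of 0.36 and 0.39. The immune sum gave 0.16 and 0.18 in S and 0.022 and 0.029 in G2M. Median UMIs per cell were 6003 and 6452 in G1 and between 12564 and 13198 in the other phases, and the part of depth in these ratios was not tested.

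In S phase, 28 of 37 constitutive genes and 2 of 5 immune genes were at least 25% above G1 in both libraries, against 22.7% of all genes tested. In G2M, 24 of 37 and 2 of 5 were, against 21.3%. The immune genes above G1 were the same in both phases, Psmb10 (0.61 and 0.58 in S, 0.43 and 0.39 in G2M) and Psme2 (0.47 and 0.48, 0.38 and 0.37). Psmb8 was the only subunit gene at least 20% lower in G2M in both libraries (-0.37 and -0.41), where 34.4% of all genes were lower, and Psmb9 was at -0.25 and -0.27. Psme1 was at 0.00028 and 0.054 in G2M. The immune catalytic subunits thus split, with Psmb10 beside its constitutive counterparts and Psmb8 and Psmb9 on the other side of 0.

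Genes were ranked within a phase by the mean ratio of the libraries, and the order below Psme3 was not the same in each of them. Psme3 had the highest ratio of all 42, at 1.05 and 1.11 in S and 1.09 and 0.88 in G2M. Psmc4 (Rpt3) at 0.74 and 0.73 and Psmd1 at 0.71 and 0.71 came next in S, and Psmd12 (Rpn5) at 0.70 and 0.72 and Psmd7 (Rpn8) at 0.66 and 0.72 in G2M. At the other end, Psme4 was at -0.21 and -0.17 in S, Psmb8 at -0.071 and -0.12 in S, and Psmd8 at -0.19 and -0.10 in S and -0.25 and -0.048 in G2M. By class sums, the ATPases were highest in both phases (0.54 and 0.60 in S, 0.60 and 0.62 in G2M), and the medians over all genes tested were between -0.13 and -0.16.

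**Figure D3:**
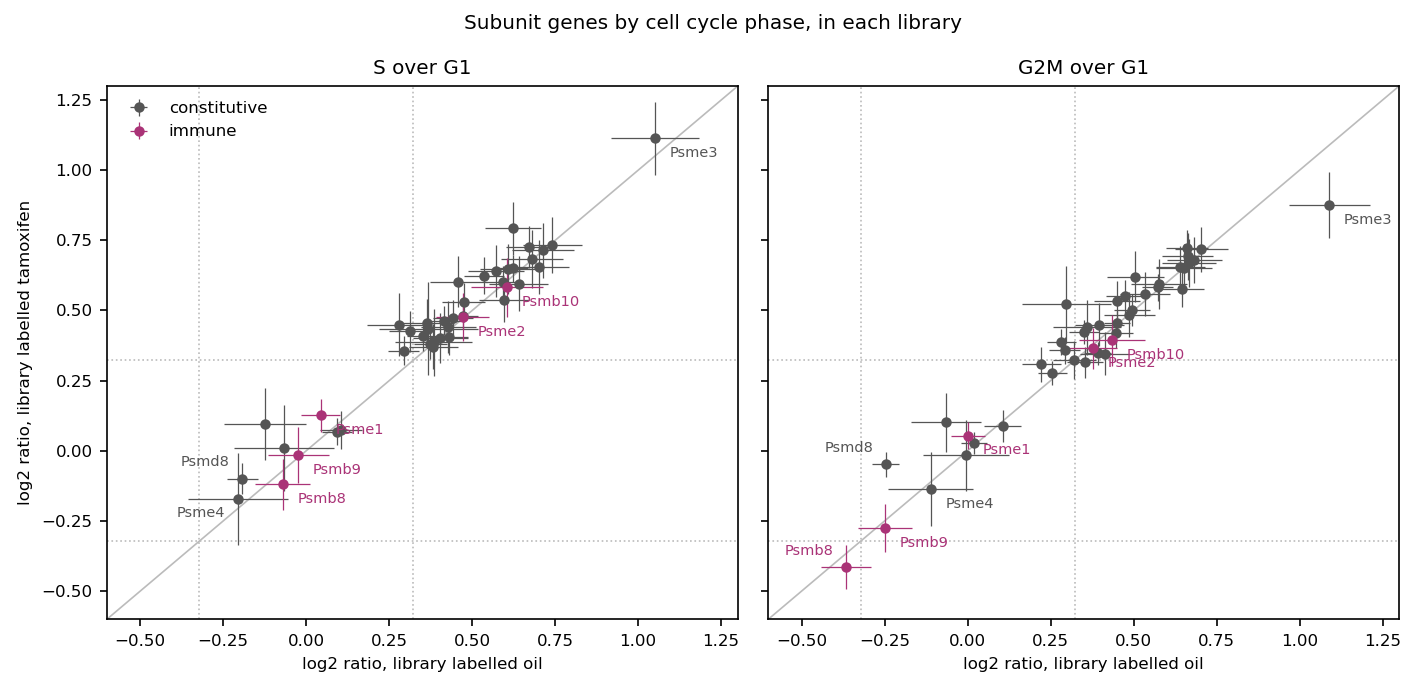
Log2 ratio of S over G1 cells (left) and of G2M over G1 cells (right) for each subunit gene, in the libraries labelled oil (x axis) and tamoxifen (y axis), with 95% counting intervals. Dotted lines mark 25% higher and 20% lower. Most constitutive genes (grey) lie at the upper right with Psmb10 and Psme2, Psme3 lies farthest out, and Psmb8 and Psmb9 lie below 0 in G2M.

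The pair shares differed by phase. Psmb8 was 39.0% of its pair in G1, 29.6% in S and 26.1% in G2M in the library labelled oil, and 42.4%, 30.5% and 28.0% in the library labelled tamoxifen. Psmb9 was 32.7%, 26.2% and 23.1%, and 33.8%, 27.6% and 24.0%. Psmb10 showed no such order, at 29.6%, 32.9% and 31.3%, and 34.2%, 37.5% and 35.2%. Because G1 cells were more frequent in the library labelled tamoxifen, the pooled shares mix phases in different proportions. Within every phase, each of the 3 shares was higher in the library labelled tamoxifen, although the intervals of the libraries overlapped for Psmb9 in all phases and for Psmb8 in S.

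Interferon state was then used to sort cells. Cells were classed by their UMIs of 24 interferon-stimulated genes, none of them a proteasome gene, at 3000 UMIs per cell. Cells with 0, 1 and at least 2 such UMIs made up 38.9%, 32.5% and 28.6% of the library labelled oil and 29.3%, 28.4% and 42.3% of the library labelled tamoxifen. The 21 listed genes that reached the minimum summed to only 344 and 624 CPM over kept cells. At 3000 UMIs a cell thus held few of these UMIs, and counting error moves cells between the classes. The classes are therefore a rough measure of interferon state, and a ratio near 0 does not show that a gene is unrelated to it. The list holds Usp18, the targeted gene, and Isg15. It was assembled with its difference between these libraries known, and is used only to sort cells. Between cells with at least 2 and cells with 0, the immune sum had a log2 ratio of 0.0092 (-0.024 to 0.042) and 0.10 (0.072 to 0.14) in the libraries labelled oil and tamoxifen, and the constitutive sum -0.12 and -0.11. The median over single genes was -0.0036 and 0.12 for the immune genes, where it was 0.074 and 0.080 over all genes tested. The log2 odds of immune over constitutive UMIs between these classes were 0.13 and 0.21. None of the 42 subunit genes was at least 25% higher in both libraries, where 11.1% of all genes were, and none was that much lower, where 3.82% were.

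By the mean ratio of the libraries the highest genes were immune, although Psmd10 and Psme4 in the library labelled oil and Psmf1 in the library labelled tamoxifen stood among them. Psmb8 was at 0.074 and 0.18, Psmb9 at 0.13 and 0.12 and Psme2 at -0.037 and 0.16. In the library labelled oil Psmb8 was thus at the median over all genes tested (0.074) and Psme2 below it. Their other values lay above the medians. The constitutive gene Psmd8 came next, at 0.012 and 0.080. The other immune genes were lower by this mean, Psme1 at -0.0036 and 0.087 and Psmb10, in the range of the constitutive genes, at -0.11 (-0.21 to -0.014) and -0.047. The lowest by the mean were constitutive, Psma4 at -0.15 and -0.28, Psma7 at -0.19 and -0.22 and Psmc1 at -0.14 and -0.27, while Psmd1 and Psmc4 were lowest in the library labelled oil alone. The Psmb8 share of its pair went from 29.4% in cells with 0 interferon UMIs to 32.6% in cells with at least 2 in the library labelled oil, and from 31.9% to 37.6% in the library labelled tamoxifen. That of Psmb10 was 31.5% and 30.7%, and 35.7% and 36.2%. Median UMIs per cell in these classes were 10565 and 7879.5, and 9910.0 and 7530.5, so depth differed with the class, and its part was not tested.

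**Figure D4:**
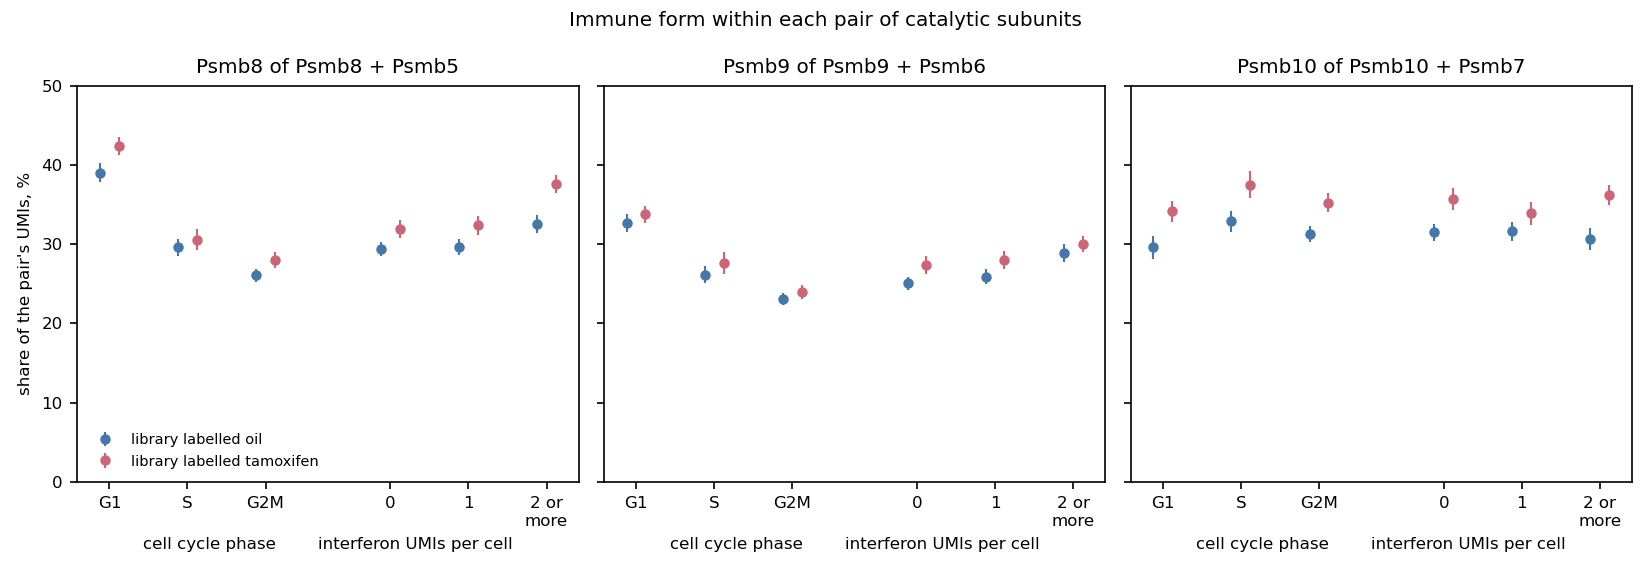
Share of the immune form in the UMIs of each pair of catalytic subunits, in percent, by cell cycle phase and by interferon UMIs per cell (0, 1, 2 or more, at 3000 UMIs per cell), with 95% exact binomial intervals. Blue and red are the libraries labelled oil and tamoxifen. Psmb8 is highest in G1 (39.0% and 42.4%) and in cells with 2 or more interferon UMIs, and Psmb10 differs more between libraries than between classes.

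The comparison between the libraries was repeated within classes of cells. The constitutive sum was at a log2 ratio of tamoxifen over oil of -0.21 in G1, -0.18 in S and -0.18 in G2M, where all cells together gave -0.24. It was between -0.23 and -0.24 in the interferon classes. The immune sum was at -0.033, -0.010 and -0.026 in the phases, and at -0.082, -0.058 and 0.013 in cells with 0, 1 and at least 2 interferon UMIs. Psme1 was at or above 0.037 and Psme2 at or below -0.11 in each of these 6 classes. Psmb9 stayed between -0.12 and -0.15 in them, and Psmb8 between -0.025 and -0.14.

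**Figure D5:**
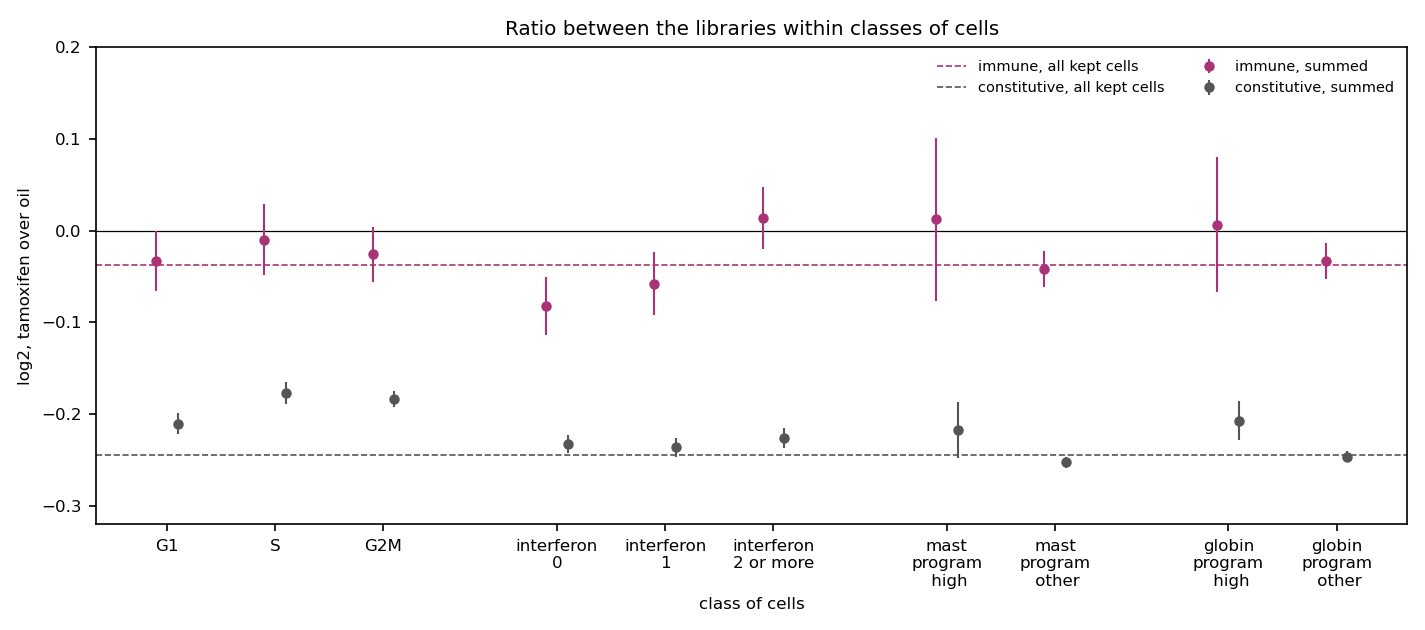
Log2 ratio of tamoxifen over oil for the summed immune (purple) and constitutive (grey) genes within classes of cells, with 95% counting intervals. Dashed lines are the values over all kept cells, -0.038 and -0.24. The constitutive sum is below 0 in all 10 classes, whereas the immune sum lies near 0 and its sign changes with class and with scaling.

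Cells rich in the transcripts of mast cell proteases or of globins differed in their subunit genes. Both groups of cells were cut at the top 10%, from 17 UMIs of Cpa3, Cma1 and the mast cell protease and tryptase genes and from 62 UMIs of the alpha and beta globin genes at 3000 UMIs per cell, and the genes named here were chosen after their values were seen. In cells high in the mast program, 29 of 37 constitutive genes and 2 of 5 immune genes were at least 20% lower than in other cells in both libraries, against 20.6% of all genes. Psme3 was lowest, at -1.47 and -0.97, whereas Psmb8 (0.15 and 0.16), Psmb9 (0.087 and 0.37) and Psme4 (0.20 and 0.28) were above 0. The median over all genes tested was also above 0, at 0.17 and 0.15. Psmb8 was thus near that median in both libraries, and Psmb9 lay below it in the library labelled oil. In cells high in the mast program the Psmb8 share of its pair was 42.5% and 46.0%, against 29.6% and 33.7% in other cells. Median UMIs per cell were 4598 and 4771 in these cells and 10148 and 9060.5 in the others.

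Cells high in globin were lower in some of the immune catalytic genes. Psmb8 was at -1.24 and -1.10 and Psmb9 at -0.76 and -0.75, and these were the 2 of 5 immune genes at least 20% lower in both libraries, beside 2 of 37 constitutive genes (Psma4 and Psmb2), against 19.7% of all genes. Psmb10 was at -0.24 and -0.35, and Psmf1 was highest at 0.30 and 0.50. The Psmb8 share of its pair was 18.6% (16.6 to 20.7) and 22.6% (20.5 to 24.9) in these cells. In the immune beta genes together the log2 ratio was -0.76 and -0.74, where the constitutive sum gave -0.14 and -0.10. The constitutive sum was thus near the median over all genes tested, which was -0.10 and -0.14. Median UMIs per cell were 6795 and 7186 in cells high in globin and 9591 and 8709 in the others. Between the libraries, the constitutive sum was at -0.22 within cells high in the mast program and -0.21 within cells high in globin.

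The genes around the proteasome were read from lists made with earlier results of these data known. Of 9 assembly chaperones listed, 8 were measured, 5 with an interval below 0 (39.8% of all genes tested) and 1 above (19.3%), and a median of -0.16, where all genes had -0.063. Psmd5, Psmd9 and Psmd10 are in this list and were already counted among the constitutive genes above. Psmg1 (-0.36), Psmg3 (-0.30) and Psmd5 (-0.24) were lowest, and Psmg4, the partner of Psmg3 in alpha ring assembly, was highest at 0.26 (0.20 to 0.32). Pomp, which guides beta ring assembly and immunoproteasome maturation, went from 309 to 272 CPM (-0.18). Of 23 measured partners, 16 had an interval below 0 and 2 above (39.8% and 19.3% of all genes), with a median of -0.23. The shuttle factor Ubqln4 was at -0.38, the ubiquitin receptor Adrm1 at -0.37 and the ubiquitin-binding Zfand5 at -0.40. Ubb, the polyubiquitin gene, was at 1879.8 and 1572 CPM (-0.26). Against them stood Sem1, the smallest lid subunit, at 332 and 422 CPM (0.35, 0.32 to 0.37), Rps27a, a ubiquitin fusion to a ribosomal protein that has many near copies in the genome and is uncertain for that reason, at 0.13, and Akirin2, which carries proteasomes into the nucleus, at 0.0021.

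Of the genes that control proteasome transcription, 11 of 13 were measured, 6 with an interval above 0 and 1 below (19.3% and 39.8% of all genes), and the median was 0.20. The interferon-responsive factors Irf1 (0.64, at only 2.26 and 3.53 CPM) and Irf9 (0.35), which lies near Psme1 and Psme2 on chromosome 14, were among the highest. Nfe2l1 itself was at 0.061 (-0.047 to 0.17). Ngly1, the enzyme that frees NRF1 of its glycans, was at -0.13, and Ddi2, the protease that releases it, at -0.099 (-0.20 to 0.00055). Irf8 and Nlrc5 were below the minimum. Of 11 peptide loading genes, 3 had an interval above 0 and 7 below, against the same shares of all genes, with a median of -0.11. B2m, the light chain of MHC class I, went from 351 to 489 CPM (0.48), Tapbp (tapasin) was at 0.34, and Tap1, which shares its promoter window with Psmb9, was at 0.16 (0.081 to 0.23) against -0.11 for Psmb9. The class I heavy chain genes H2-D1 and H2-K1 went the other way from B2m, at -0.12 (-0.14 to -0.098) and -0.083 (-0.11 to -0.055). The chaperones Pdia3 (-0.28), Calr (-0.28) and Canx (-0.21) were lowest.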

How the data were processed

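Lin- c-Kit+ GFP+ leukemia cells of the spleen were profiled as 2 single-cell libraries, 1 each for oil and tamoxifen. The deposited values are raw UMI counts, made by the authors from 3′ V3 reads with Cell Ranger 3.0.2 on mm10. The submitters' processing notes also name Seurat. Counts were read with scipy 1.17.1 and summed over kept cells as CPM. Intervals were exact Poisson for CPM, conditional binomial for log2 ratios, Clopper-Pearson for shares, Woolf for log2 odds and Newcombe for differences of shares. Each covers counting error only, and the depth of 60661486 to 66045700 kept UMIs sets its width. Phases were called with scanpy 1.11.5 after 1 random draw of 3000 UMIs per cell. Doublets were neither called nor removed, and no clusters were made. Alternatives used edgeR 4.0.16 (TMM) and DESeq2 1.42.0 (size factors), for scaling only. Named genes were the immune genes, their counterparts, Psme3, Psme4, Psmf1, the highest and lowest in level and ratio of each class, and the 3 highest and 3 lowest of each related list and phase or interferon contrast, of which 1 gene is not reported here. The members and lists were chosen with earlier results of these data known. Positions come from the GRCm38 annotation and promoters from RefSeq, and the scripts were tested on simulated data.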

Additional observations from a re-analysis of the deposited data

Results flagged for a closer look

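The 936 (oil) and 839 (tamoxifen) barcodes that the cell filter left out were not used in the comparisons, and they held 4193876 and 4367186 UMIs. In them the log2 odds of immune over constitutive UMIs were 0.13 higher (0.050 to 0.21) in the library labelled tamoxifen, against 0.21 in kept cells. The Psmb10 share of Psmb10 and Psmb7 was 9.98 percentage points higher there (5.31 to 14.6), against 3.98 points in kept cells. Both were singled out because the signal lies in data outside the main measurement with an interval that leaves out 0. The Psmb8 share differed by 3.51 points (-0.19 to 7.21), and the Psmb9 share by -2.46 points (-6.12 to 1.23).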

How the results depend on the processing

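No paired analysis was possible because only 1 library was made for either group. The immune sum (-0.038) turned to 0.0046 with TMM, 0.00081 with median-ratio factors and 0.033 without mitochondrial and ribosomal protein genes in the total, and was -0.060 with every cell given the same total. In the same order the constitutive sum (-0.245) was -0.202, -0.206, -0.174 and -0.254, and it was -0.255 without the 6% of cells with the most UMIs. The constitutive median (-0.27) was -0.23, -0.23 and -0.20 under the 3 scalings, which each left 3 members at least 20% lower, against 10. Of the 10527 genes tested, 805, 823 and 633 were that much lower under these scalings, against 1122. In G1 cells alone the constitutive sum was -0.210, the median -0.22, the number lower 4, the immune minus constitutive difference 0.18 and the Psmb9 share difference 1.10 points. A filter of 1000 or more genes and no more than 5% mitochondrial UMIs, which left 673 and 771 cells, gave -0.284, -0.32, 19 and 0.25, with 6.15 points for Psmb8 and 5.09 for Psmb9, and turned the single-gene ratios of Psmb9 to 0.017, Psmb8 to 0.086 and Psme4 to 0.065. How many of all genes were at least 20% lower in these sets of cells was not counted. Thinned to 1500 and 5000 UMIs, constitutive S over G1 was 0.35 and 0.33 (oil) and 0.39 and 0.39 (tamoxifen), and G2M over G1 0.31 and 0.28, and 0.35 and 0.34. The interferon odds were 0.18 at 1500 UMIs in the library labelled oil and 0.17 at 5000 in the library labelled tamoxifen. All barcodes as deposited, at most 20% mitochondrial UMIs and minimums of 20 and 500 UMIs moved none of these values beyond its interval. The cause of each change was not tested. Counting error is small here, and the missing replicates limit every comparison.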
